A study of Homo sapiens with 6 samples.

Results

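The vascular endothelial growth factor (VEGF) and angiopoietin system was followed here through 10 genes: the ligand genes VEGFA, VEGFB, VEGFC, PGF and ANGPT2, and the receptor genes FLT1, KDR, TEK, NRP1 and NRP2. Every probe set that the platform annotation maps to 1 of these genes and to no other was taken, which gave 41 of the 49193 probe sets in the table (10 of 18129 genes). The list of genes was chosen on the R1881 and vehicle values of these same arrays, so the differences between the 2 groups below describe the genes and are no independent evidence that they respond. RNA came from UMUC3-c31 cells, a derivative of the human bladder carcinoma line UMUC3, and the sources used here do not say how c31 was made. In the R1881 group (3 arrays), cells were given 10 nM of the synthetic androgen R1881 for 24 h, and in the vehicle group (3 arrays) they were given ethanol for 24 h. All cells of both groups had first spent 24 h in serum stripped of steroids with charcoal, and the design text names the 3 samples of a group biological replicates.

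The system is best known for building and maintaining blood vessels. VEGF-A binds the receptor tyrosine kinases encoded by FLT1 and KDR, of which KDR carries most of the mitogenic signal in endothelial cells, while placental growth factor (PGF) and VEGF-B bind the FLT1 product. VEGF-C acts mainly on lymphatic vessels through the FLT4 product, and the neuropilins encoded by NRP1 and NRP2 are co-receptors that also bind semaphorins. The TEK product (TIE2) is the receptor of the angiopoietins, which stabilise vessels or, as angiopoietin 2 (ANGPT2), often oppose that effect. Carcinoma cells are a common source of the ligands, and FLT1, KDR and TEK are expressed chiefly by endothelial cells.

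Of the 10 genes, 7 had a promoter among those taken from the RefSeq table used here (GRCh38.p14). Member promoters on the chromosome that carries ANGPT2 were left out, so ANGPT2 was not searched. VEGFA and NRP1 had no promoter in that table and were not searched either. The 5 windows shown set PGF and TEK, the matched genes with a called probe set, beside VEGFB, VEGFC and KDR, 3 members without one. FLT1 and NRP2, also matched and without a called set, were searched but are not shown. Each line holds the 250 bases before the transcription start, 5' to 3' on the gene's strand, and for PGF and TEK the more upstream of their 2 listed starts was used. The windows lie at chr14:74955765-74956014 (minus strand) for PGF, chr9:27108975-27109224 (plus) for TEK, chr11:64234334-64234583 (plus) for VEGFB, chr4:176792923-176793172 (minus) for VEGFC and chr4:55125596-55125845 (minus) for KDR. Capitals mark any match, on either strand, to the androgen receptor hexamer AGAACA, the hypoxia core ACGTG or GCGTG, the GC box GGGCGG or the AP-1 site TGACTCA.
PGF: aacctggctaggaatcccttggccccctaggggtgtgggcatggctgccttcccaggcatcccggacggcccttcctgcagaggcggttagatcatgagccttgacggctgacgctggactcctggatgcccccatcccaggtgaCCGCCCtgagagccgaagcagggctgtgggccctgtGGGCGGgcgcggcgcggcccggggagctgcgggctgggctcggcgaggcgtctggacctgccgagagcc
TEK: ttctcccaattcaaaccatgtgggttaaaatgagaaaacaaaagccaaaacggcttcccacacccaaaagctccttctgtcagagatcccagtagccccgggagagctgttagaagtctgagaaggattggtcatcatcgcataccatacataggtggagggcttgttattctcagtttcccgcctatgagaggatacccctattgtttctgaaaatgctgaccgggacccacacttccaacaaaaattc
VEGFB: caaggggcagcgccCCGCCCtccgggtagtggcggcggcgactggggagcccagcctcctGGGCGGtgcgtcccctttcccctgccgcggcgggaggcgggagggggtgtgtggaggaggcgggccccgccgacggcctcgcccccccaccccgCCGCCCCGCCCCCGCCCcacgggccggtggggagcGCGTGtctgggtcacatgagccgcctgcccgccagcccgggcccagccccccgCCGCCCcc
VEGFC: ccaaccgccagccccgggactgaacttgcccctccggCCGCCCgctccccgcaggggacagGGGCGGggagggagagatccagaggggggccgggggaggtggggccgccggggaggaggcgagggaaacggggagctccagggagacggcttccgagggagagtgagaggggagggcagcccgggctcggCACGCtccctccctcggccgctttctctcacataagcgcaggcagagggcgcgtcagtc
KDR: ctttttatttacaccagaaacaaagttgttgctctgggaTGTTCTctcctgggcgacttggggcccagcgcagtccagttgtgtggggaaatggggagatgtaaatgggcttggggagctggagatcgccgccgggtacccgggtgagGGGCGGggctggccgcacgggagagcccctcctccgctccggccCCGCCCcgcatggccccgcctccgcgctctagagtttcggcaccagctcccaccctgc

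The PGF window shown held 2 GC boxes and no other match, while the window of its other listed start, which overlaps it, held 3 GC boxes and 1 hypoxia core at 80.0% GC. Among the other windows that of TEK held none of the letters searched, as did the window of its second start. VEGFB had 6 GC boxes, some of them overlapping, and 1 hypoxia core, VEGFC had 2 GC boxes and 1 hypoxia core, and KDR had 2 GC boxes and 1 androgen receptor hexamer, 211 bases before its start. Of the windows not shown, that of FLT1 held 3 GC boxes and 1 hypoxia core, and that of NRP2 held 3 GC boxes. Among all 35116 promoter windows of this length, 42.6% held a GC box, 43.2% a hypoxia core, 12.4% an androgen receptor hexamer and 4.20% an AP-1 site. The full androgen receptor palindrome (AGAACA, any 3 bases, TGTTCT) was in none of the members' windows and in 0.00285% of all. GC made up 70.8% of the PGF window shown and 46.4% of the TEK window, against a median of 58.0% over all windows. These matches describe the letters of short windows, and binding was not measured here.

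With R1881, transcripts of 2 of the 5 ligand genes, VEGFA and PGF, were higher on every probe set that measures them, by about 2.22-fold on the brightest VEGFA set and 3.63-fold for PGF. VEGFB and VEGFC were measured well above background and differed little between the groups, and ANGPT2 lay below background in both. Of the receptors, NRP1 was above background on 2 of its 6 sets and NRP2, narrowly, on 1 of 9, and both differed little. FLT1 and KDR lay below background in both groups, and TEK read higher on 1 set whose means were below background in both groups. In a linear model (limma) fitted to every probe set, with Benjamini-Hochberg adjustment over all 49193 and a threshold of 0.05, 12 of the 41 member probe sets were called higher with R1881 and 0 lower. Of all probe sets 1.54% were called, 1.12% higher and 0.427% lower. The 12 are the 10 sets of VEGFA, the set of PGF and 1 set of TEK, and because the genes were chosen on this contrast nothing is read from that count.

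**Figure D1:**
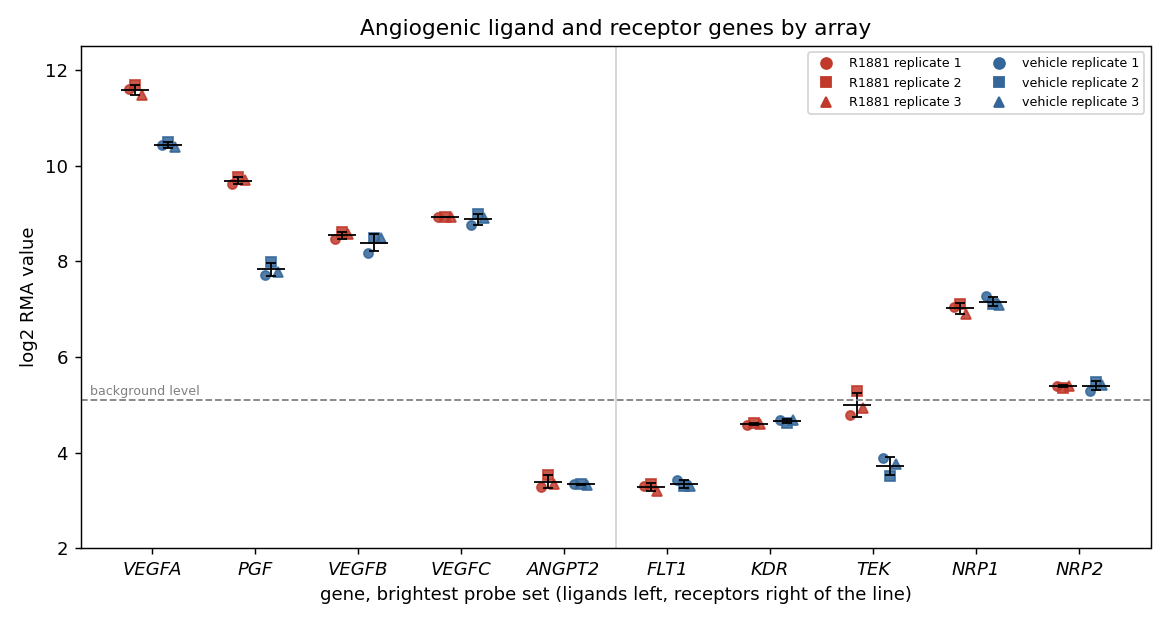
Log2 RMA value (y axis) of the brightest probe set of each of the 10 genes (x axis) on the 3 R1881 arrays (red, left) and the 3 vehicle arrays (blue, right), with bars for the mean and SD of 3 arrays and a dashed line at the background level of 5.10. VEGFA and PGF show separate groups above the line, TEK shows separate groups around and below it, and heights of different genes cannot be compared because probe sets bind with different strength.

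PGF encodes a dimeric VEGF relative that binds the FLT1 receptor and is named for its abundance in placenta. Its only probe set read 9.62, 9.75 and 9.69 on the log2 scale on the R1881 arrays, against 7.71, 7.99 and 7.78 on the vehicle arrays. The groups were far apart, with the lowest R1881 array 1.63 above the highest vehicle array. The means were 9.69 ± 0.07 and 7.83 ± 0.15 (SD, n = 3 each), a log2 difference of 1.86 ± 0.08 (SE) or a fold of 3.63 with a 95% confidence interval of 3.18 to 4.15. Among the 18129 genes with a probe set of their own, PGF had the 6th largest rise. Leaving out each array in turn gave differences of 1.80 to 1.94, and the set stayed called each time.

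VEGFA encodes the main angiogenic ligand, whose alternatively spliced forms differ in how tightly they bind heparan sulphate. Its brightest probe set read 11.61, 11.68 and 11.47 with R1881, against 10.42, 10.50 and 10.38 with vehicle, so that all R1881 arrays lay above all vehicle arrays. The log2 difference was 1.15 ± 0.07 (SE), a fold of 2.22 with a 95% confidence interval of 1.99 to 2.49. The other 9 sets were also higher with R1881 with no overlap between the groups, and the gap between the lowest R1881 and the highest vehicle array ran from 0.49 to 1.15 over the 10 sets.

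The 10 VEGFA sets did not give the same size of change. Over them the log2 difference ran from 0.61 to 1.41 with a median of 1.17. The largest was on the set that read 8.59, 8.55 and 8.53 with R1881 against 7.0, 7.41 and 7.03 with vehicle, a difference of 1.41 ± 0.11 (SE). The smallest were on the 2 dimmest sets, at 0.68 ± 0.05 and 0.61 ± 0.07. The dimmest read 7.26, 7.15 and 7.17 with R1881 against 6.63, 6.66 and 6.47 with vehicle. Set by set the confidence intervals of these 2 sets (0.57 to 0.80 and 0.45 to 0.76) did not reach those of the 4 sets with the largest differences, the lowest of which began at 1.04. Of the 10 sets 8 are of the s or x type, whose probes can also match other transcripts, and the transcripts that each set covers were not used here.

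Vehicle replicate 2 was the highest vehicle array on 9 of the 10 VEGFA sets and on the PGF set. R1881 replicate 2 was the highest R1881 array on the 4 brightest VEGFA sets and on the PGF set, but not on the 6 dimmer VEGFA sets. The SD of the vehicle arrays exceeded that of the R1881 arrays on 8 of the 10 VEGFA sets, where it ran from 0.04 to 0.24 over all 10 with vehicle and from 0.01 to 0.11 with R1881. Each of the 10 sets stayed called without any 1 of the 6 arrays.

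**Figure D2:**
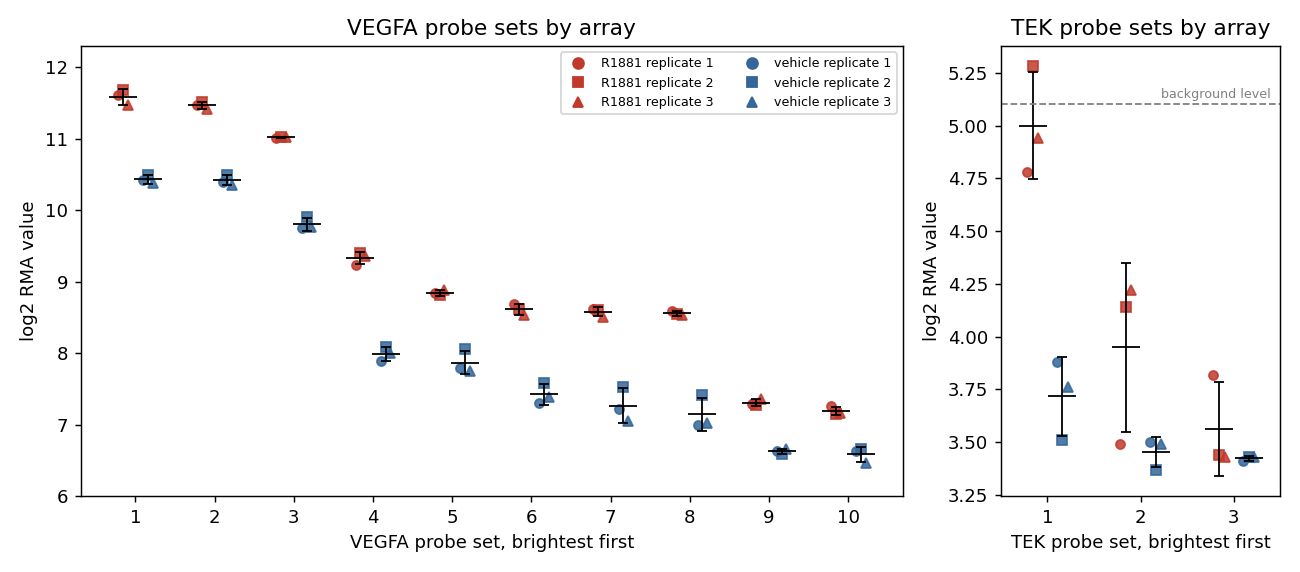
Log2 RMA values (y axes) of the 10 VEGFA probe sets (left) and the 3 TEK probe sets (right) by array, brightest set first on the x axes, with R1881 in red left of vehicle in blue, symbols for the replicate number and bars for the mean and SD of 3 arrays. Red and blue stay apart on every VEGFA set, with the narrowest gap at the dimmest set, whereas for TEK they stay apart only on the brightest set, most of whose points lie under the dashed background level of 5.10.

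VEGFB and VEGFC, each on 1 probe set, stand beside these. VEGFB, whose product acts through FLT1 and is abundant in heart and muscle, read 8.46, 8.61 and 8.56 with R1881 against 8.18, 8.49 and 8.49 with vehicle. The groups overlapped, and the log2 difference of 0.16 ± 0.09 (SE) had a 95% confidence interval of -0.07 to 0.38. VEGFC, the lymphangiogenic ligand, read 8.93, 8.92 and 8.92 with R1881 against 8.75, 8.98 and 8.90 with vehicle, a difference of 0.05 ± 0.07 (SE) with an interval of -0.11 to 0.20. Vehicle replicate 1 was the lowest array for both genes. Without it the difference was 0.05 for VEGFB and -0.02 for VEGFC. Over all genes, the second principal component placed vehicle replicate 1 at 11 and vehicle replicates 2 and 3 at -8.21 and -6.99. It placed R1881 replicate 1 on the same side, at 5.69, and R1881 replicates 2 and 3 at -0.667 and -0.872. The confidence intervals leave room for changes of up to 1.30-fold for VEGFB and 1.15-fold for VEGFC.

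ANGPT2, the angiopoietin that often opposes TEK signalling, had 3 probe sets, all below the background level in both groups. That level, 5.10 on the log2 scale, is the 90th percentile of 484 probe sets of olfactory receptor and keratin-associated protein genes. The brightest ANGPT2 set read 3.28, 3.54 and 3.34 with R1881 against 3.34, 3.34 and 3.32 with vehicle, and the differences of the 3 sets ran from 0.00 to 0.05.

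TEK was the one receptor gene with a called set, and all of its 3 sets were dim. The brightest read 4.78, 5.28 and 4.94 with R1881 against 3.88, 3.51 and 3.76 with vehicle. The groups did not overlap, and 1 R1881 array lay above the background level while the R1881 mean of 5.0 ± 0.26 (SD) and the vehicle mean of 3.72 ± 0.19 (SD) stayed below it, so no fold is given. The readings differed by 1.28 ± 0.14 (SE) on the log2 scale, which at this signal is not a measure of the change in transcript. That difference stayed between 1.14 and 1.39 when 1 array was left out, but the call was lost without R1881 replicate 3 (adjusted p = 0.0524) and without vehicle replicate 3 (adjusted p = 0.0571). It was also lost with the replicate number as a block in the limma fit (adjusted p = 0.0545). With the mean of all 3 TEK sets in place of the brightest the difference was 0.64.

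The other TEK sets gave smaller values. The middle one read 3.49, 4.14 and 4.22 with R1881 against 3.50, 3.37 and 3.49 with vehicle, so R1881 replicate 1 lay among the vehicle arrays and the readings, which differed by 0.50 ± 0.18 (SE), were not called. Without R1881 replicate 1 they differed by 0.73 and were called. The dimmest set read 3.82, 3.44 and 3.43 with R1881 against 3.41, 3.43 and 3.43 with vehicle, where R1881 replicate 1 alone stood higher. R1881 replicate 1 was thus the lowest R1881 array on the first and second sets and the highest on the dimmest. The disagreement between the sets was not tested.

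FLT1 and KDR, the VEGF receptor kinases, showed no signal above background. The 5 FLT1 sets had means over all arrays of 2.39 to 3.31 and differences of -0.14 to 0.09. The brightest read 3.30, 3.34 and 3.19 with R1881 against 3.43, 3.30 and 3.30 with vehicle. The dimmest FLT1 set, at 2.27, 2.30 and 2.39 with R1881 against 2.49, 2.45 and 2.43 with vehicle, had groups that did not overlap although every value lay below background. KDR read 4.57, 4.61 and 4.59 with R1881 against 4.69, 4.61 and 4.68 with vehicle on its brighter set, a difference of -0.07 ± 0.05 (SE), and its dimmer set stood at 0.11 ± 0.05 (SE), of opposite sign and without overlap.

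Of the neuropilin genes, NRP1 was measured better, and NRP2 lay only narrowly above background. On its brightest set NRP1 read 7.04, 7.11 and 6.89 with R1881 against 7.27, 7.11 and 7.09 with vehicle, with R1881 replicate 3 lowest and the groups overlapping. The log2 difference was -0.14 ± 0.08 (SE) with a 95% confidence interval of -0.33 to 0.04. The second NRP1 set above background stood at -0.16 ± 0.13 (SE), while the 4 sets below it had positive differences, up to 0.24. NRP2 read 5.40, 5.36 and 5.39 with R1881 against 5.29, 5.47 and 5.42 with vehicle on the only one of its 9 sets above background, a difference of -0.01 ± 0.06 (SE). The other 8 NRP2 sets ran from -0.19 to 0.18.

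Across the family, 16 of the 41 member probe sets lay above the background level in at least 1 group, 10 of them on VEGFA. The 29 sets not called, of which 5 lay above background, had differences of -0.19 to 0.50 with a median of 0.05. Of these 29, 19 were positive. Over all 49193 probe sets the median was 0.00 and 49.1% were positive. By limma, 2 of the 29 had an unadjusted p under 0.05, the middle TEK set, higher with R1881, and the dimmest FLT1 set, lower with R1881. Groups of 3 arrays did not overlap on 15 of the 41 sets, against 16.8% of all probe sets. With 1 probe set per gene and adjustment over 18129 genes, 3 of the 10 genes were called (VEGFA, PGF and TEK), against 2.42% of all genes. In that limma fit over genes, which is not the probe set fit behind the 2 of 29, 2585 of all 18129 genes had an unadjusted p under 0.05.

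**Figure D3:**
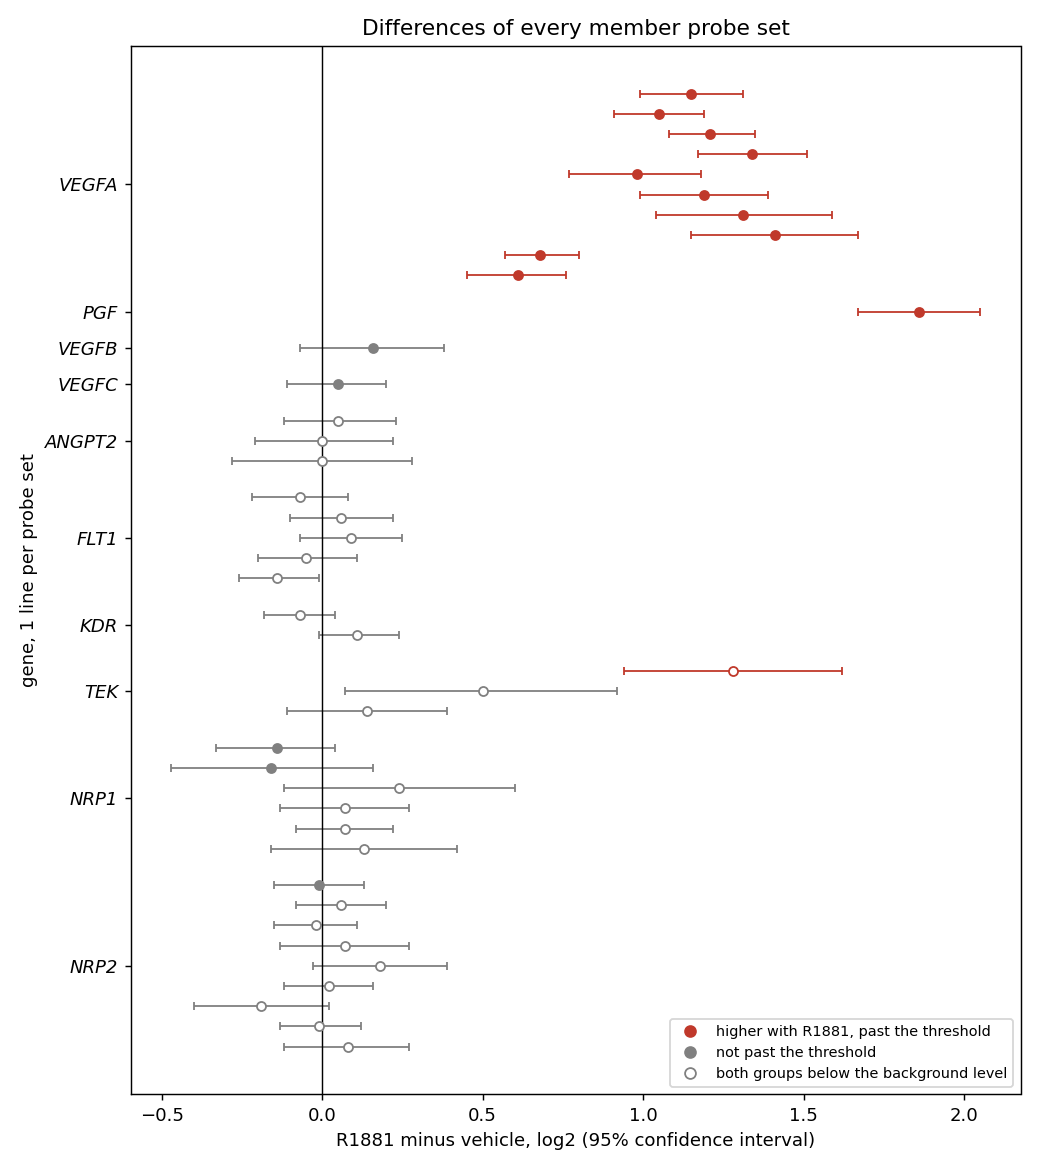
Log2 difference, R1881 minus vehicle (x axis), of each of the 41 probe sets, grouped by gene down the page, with 95% confidence intervals from the limma fit and brightest set first within a gene. The 12 red sets passed the threshold, open symbols lie below background in both groups, and the 10 VEGFA sets and PGF stand to the right of all other filled symbols.

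The patterns closest to PGF and VEGFA were taken as the smallest root mean square difference between mean-centred log2 values over the 6 arrays, among 10752 other genes above background. Closest to PGF were DEPP1, a gene that FOXO factors are known to induce (0.068), the proteoglycan linker phosphatase gene PXYLP1 (0.132) and KANK1, whose product acts on actin and adhesion (0.180). DEPP1 read 10.20, 10.26 and 10.25 with R1881 against 8.27, 8.56 and 8.51 with vehicle. Closest to VEGFA were HILPDA, a lipid droplet protein gene (0.064), the glycosyltransferase gene B3GNT5 (0.064) and STC1, which encodes the secreted glycoprotein stanniocalcin 1 (0.074). STC1 read 10.54, 10.60 and 10.57 with R1881 against 9.34, 9.36 and 9.35 with vehicle. With 6 arrays in 2 groups this likeness rests mainly on the size of the group difference.

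Other genes of the system were counted over 7 lists, of which 133 genes were measured, each on its brightest probe set. Some lay below background in both groups, where a missing call does not show an unchanged transcript. In the limma fit over 18129 genes 11 of the 133 rose with R1881, 6 fell and the remaining 116 were not called. That is 8.27% higher and 4.51% lower, beside 1.60% and 0.816% of all genes, and the median difference was 0.03 against 0.00 for all genes. The lists were chosen with earlier results of these data known, so nothing is read from these shares. With the replicate number as a block in the fit, 5 rose and 1 fell. Of all 18129 genes, 2585 had an unadjusted p under 0.05 in the main limma fit. Such counts for the lists and markers below stand beside that number. Among the remaining ligands and receptors of the family none of 4 passed in limma (1 at an unadjusted p under 0.05): ANGPT1, the stabilising TEK ligand, stood at -0.19 ± 0.05 (SE), with 7.69, 7.66 and 7.77 in R1881 arrays and 7.93, 7.86 and 7.91 in vehicle arrays. The VEGF-C receptor gene FLT4 stood at 0.12 ± 0.07, ANGPT4, below background in both groups, at 0.08 ± 0.11 and TIE1, a receptor that pairs with the TEK product, at 0.03 ± 0.05. Of 12 class 3 semaphorins and plexins, which share the neuropilins as receptors, none passed (1 at an unadjusted p under 0.05), with SEMA3C at -0.16 ± 0.06 and PLXNA2, below background in both groups, at 0.28 ± 0.12. In at least 1 group 7 of the 12 lay above background.

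Among 30 genes that signal downstream of the VEGF receptors or TEK, 1 rose, 2 fell and 27 did not pass, with a median of 0.04. Before adjustment 9 had a p under 0.05 by limma, and 24 lay above background in at least 1 group. PRKCA, a protein kinase C, rose by 0.35 ± 0.05 (SE, adjusted p = 0.0127). GRB14, an adaptor of receptor kinases, fell by 0.50 ± 0.07 (adjusted p = 0.0192), and PXN, the focal adhesion protein paxillin, fell by 0.35 ± 0.06 (adjusted p = 0.0226). The adaptor SHC1 stood at 0.21 ± 0.05 (adjusted p = 0.10). PRKCA and PXN lost their calls without any 1 array other than vehicle replicate 1 (adjusted p up to 0.0647 and 0.110; PXN stood at -0.17 with the mean of its probe sets, adjusted p = 0.243), and GRB14 without any 1 other than R1881 replicate 1 (up to 0.104).

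Of 21 factors known to act on VEGFA transcription or its mRNA, 2 rose, none fell by limma and 19 did not pass, with a median of -0.04 and 8 at an unadjusted p under 0.05. In at least 1 group 20 of the 21 lay above background. EPAS1, which encodes the hypoxia-inducible factor HIF-2 alpha, read 11.32, 11.28 and 11.38 with R1881 against 9.82, 10.00 and 9.95 with vehicle, a rise of 1.40 ± 0.06 (SE, adjusted p = 1.01e-04). The transcription factor gene ETS1 rose by 0.39 ± 0.05 (adjusted p = 0.00682). HIF1A, of the other main HIF alpha subunit, stood at 0.16 ± 0.04 (adjusted p = 0.156) and EGR1 at -0.39 ± 0.12 (adjusted p = 0.196). Both rises kept their calls without any 1 of the 6 arrays.

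Of 25 other angiogenic factors, most of them secreted, 4 rose, 1 fell and 20 did not pass, with a median of 0.06. Before adjustment 10 had a p under 0.05 by limma, and 18 lay above background in at least 1 group. ADM, which encodes the vasodilator adrenomedullin, rose by 0.61 ± 0.05 (SE, adjusted p = 0.00142), and EFNB2, the membrane-bound ephrin B2 ligand of arterial vessels, by 0.54 ± 0.05 (adjusted p = 0.00200). The chemokine gene CXCL8 rose by 0.46 ± 0.07 and the matricellular gene CCN1 by 0.27 ± 0.04, while APLN, the peptide apelin, fell by 0.37 ± 0.05, with adjusted p of 0.0130 to 0.0246 for these 3. CXCL8 and APLN lost their calls without any 1 array other than vehicle replicate 1 (adjusted p up to 0.0976 and 0.0722) and CCN1 without any 1 of the 6 (up to 0.0993).

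Among 20 inhibitors of angiogenesis 1 fell, none rose by limma and 19 did not pass, with a median of -0.03 and 5 at an unadjusted p under 0.05. Only 7 of these 20 genes had a group mean over the background level, with R1881 or with vehicle. For the rest, the lack of a call cannot tell whether the transcript changed. The protease gene ADAMTS1 fell by 0.28 ± 0.05 (SE, adjusted p = 0.0373), a call lost without any 1 of the 6 arrays (up to 0.136). COL18A1, the source of endostatin, stood at 0.27 ± 0.05 (adjusted p = 0.0640), SPARC at -0.16 ± 0.05 and ADGRB1 at 0.20 ± 0.07.

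Of 21 genes that release VEGF or hold it in the matrix 4 rose, 2 fell and 15 did not pass, with a median of 0.09. Before adjustment 12 had a p under 0.05 by limma, and 17 lay above background in at least 1 group. PLAU, the protease urokinase, fell by 0.46 ± 0.04 (SE, adjusted p = 0.00307), with 12.12, 12.11 and 12.06 in R1881 arrays and 12.57, 12.51 and 12.58 in vehicle arrays. CCBE1, which promotes the processing of VEGF-C, rose by 0.52 ± 0.05 (adjusted p = 0.00412), with 7.64, 7.56 and 7.68 in R1881 arrays and 7.16, 7.12 and 7.04 in vehicle arrays. The heparan sulphate proteoglycan gene SDC3 rose by 0.35 ± 0.05 (adjusted p = 0.0124), and its relative SDC1 fell by 0.31 ± 0.04 (adjusted p = 0.0126). The other rises, named after their values were seen, were SDC4 (0.28 ± 0.04) and the protease gene CTSD (0.43 ± 0.06). PLAU and CCBE1 kept their calls without any 1 array. SDC3 and CTSD lost theirs without any 1 R1881 array or without vehicle replicate 3 (adjusted p up to 0.0650 and 0.0966), SDC1 without any 1 array other than vehicle replicate 1 (up to 0.0683), and SDC4 without any 1 other than R1881 replicate 1 (up to 0.0893). With the mean of its probe sets SDC3 stood at 0.15 (adjusted p = 0.142).

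**Figure D4:**
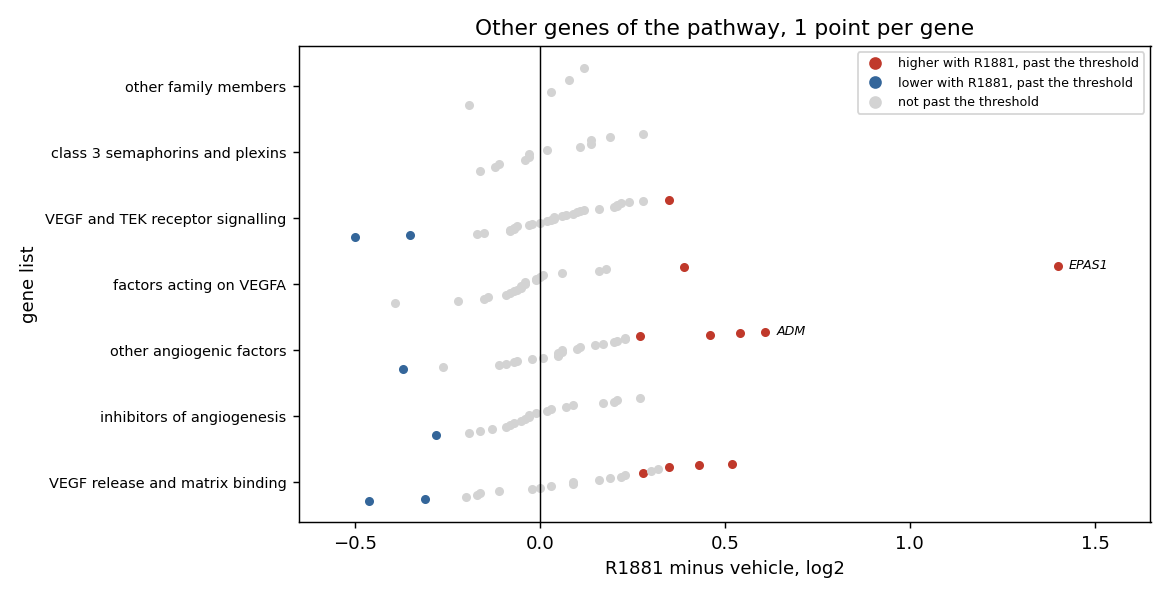
Log2 difference, R1881 minus vehicle (x axis), of the 133 measured genes of 7 lists around the VEGF and angiopoietin system, with 1 point per gene, sorted within each list. The 11 red genes rose and the 6 blue genes fell past the threshold of the limma fit over all genes, and EPAS1 at 1.40 stands apart from the rest.

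Markers of the cells that normally carry FLT1, KDR and TEK were looked at beside the TEK value. Of 14 endothelial markers 4 lay above background in at least 1 group (ROBO4, VWF, SOX18 and ENG), none passed the limma threshold (before adjustment, 3 had a p under 0.05) and the median difference was -0.02. The smallest p values in that list belonged to ERG, MMRN1 and ROBO4. ROBO4 read 5.13, 5.08 and 5.12 with R1881 against 5.34, 6 and 5.36 with vehicle, where replicate 2 stood well above the other vehicle arrays. Its groups did not overlap, and the difference was -0.46 ± 0.17 (SE, adjusted p = 0.288). ERG, at 0.30 ± 0.08 (adjusted p = 0.132), and MMRN1, at -0.23 ± 0.07 (adjusted p = 0.211), also had groups that did not overlap but lay below background. PECAM1 averaged 4.30 with R1881 and 4.44 with vehicle, CDH5 averaged 3.70 with R1881 and 3.53 with vehicle, and both lay below background, as did CLDN5. Summed on the linear scale, the 14 markers ran from 523 to 532 intensity units on the R1881 arrays and from 504 to 589 on the vehicle arrays. The brightest, ENG, averaged 7.80 with R1881 and 7.82 with vehicle and weighs most in these sums. None of 14 pericyte, fibroblast and leukocyte markers passed the limma threshold either (before adjustment, 2 had a p under 0.05). Of these 14, 4 lay above background (CD68, ACTA2, DES and PDGFRB). Their sums over all 14 ran from 807 to 899 with R1881 and from 860 to 943 with vehicle, and CD68, the brightest at 8.69 and 8.93, weighs most. Among them CD68 stood at -0.24 ± 0.10 (SE), and CD3E, below background, at 0.19 ± 0.07. All 6 samples are labelled UMUC3-c31, and the labels name no other cell type. The part of these markers in the TEK value was not tested. In bulk RNA a change in the number of cells of a kind and a change of RNA per cell cannot be told apart.

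Of 13 measured genes in a list of epithelial and urothelial carcinoma markers 4 were above background, the keratin genes KRT18, KRT8 and KRT7 and the intermediate filament gene VIM. VIM, which is commonly used as a mesenchymal marker and not an epithelial one, averaged 14.06 with R1881 and 14.10 with vehicle. The urothelial markers UPK1A, UPK2, UPK3A, GATA3 and KRT20 and the epithelial markers EPCAM and CDH1 lay below it in both groups. By limma 3 of the 13 genes had an unadjusted p under 0.05. KRT18 fell by 0.37 ± 0.05 (SE, adjusted p = 0.00830) and KRT7 rose by 0.40 ± 0.06 (adjusted p = 0.0192), but KRT7 was not called without any 1 array other than R1881 replicate 3 (up to 0.104). With the replicate number as a block in the limma fit, KRT18 and KRT7 both lost their calls (adjusted p = 0.0644 and 0.0929).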

How the data were processed

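RNA of 6 samples was hybridised to 6 Affymetrix arrays. The deposited table holds 1 log2 value per probe set and array, which the authors computed by RMA according to the submitters' processing notes. The sources used here give neither its version nor a filter. RMA removes a shift common to all transcripts, and values are rounded to 2 decimals. Array medians were 5.49 to 5.51. Signal over background was judged by proxy, without detection calls, and 3 arrays per group limit the precision.

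Probe sets were named by the platform annotation: 44898 had 1 gene symbol, 1825 several and 2470 none. No member gene was on a probe set with several symbols. Unfiltered values entered limma 3.58.1 in R 4.3.3 (lmFit, eBayes, no trend, two-sided), over all probe sets for the 10 genes and over 1 probe set per gene (the brightest) for the lists. SE and 95% confidence intervals are those of the moderated fit over all probe sets for the 10 genes, and SEs of list genes those of the gene fit. The fit was tested on simulated data. Promoter motifs were searched as letters.

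The members and lists were chosen with earlier results of these data known. Named were all 10 genes, up to 4 list genes with the smallest p, every called list gene where 5 or fewer were called, and the 3 genes closest in pattern to PGF and to VEGFA. Defining cell markers outside this rule (PECAM1, CLDN5, ENG and those listed only as above or below background) were named after their values were seen. As alternatives, arrays were centred or quantile normalized again, weighted or left out in turn, the prior was changed, dim probe sets were dropped, the replicate number was blocked and genes were summarised over their probe sets differently.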

Additional observations from a re-analysis of the deposited data

How the results depend on the processing

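Over 35 results and 452 alternative values, 341 kept direction and side of the threshold (counts within 1.5 times), 78 lost a call, 25 counts moved further and 8 differences changed sign. Called probe sets numbered 759, against 1389 without dim probe sets, 1525 with a trended and robust prior, 372 with a replicate block and 302 to 406 with 1 array left out. With 1 probe set per gene 438 genes were called, and 470 with the mean of a gene's sets, with 3 member genes in either case in place of 12 probe sets. Member probe sets called higher were 11 to 13 with 1 array left out, 11 with the replicate block and 11 without dim sets, where TEK was not tested, and 0 were called lower throughout. List genes called numbered 5 higher and 1 lower with the replicate block, against 11 and 6, and 5 to 9 higher and 1 to 4 lower with 1 array left out. With fewer arrays the calls over all probe sets also dropped. VEGFA and PGF kept their calls under all 14 alternatives. The sign changes were all in uncalled genes: VEGFC at -0.02 without vehicle replicate 1 (-0.02 to 0.10 over the 6 arrays left out), ANGPT2 at -0.02 without R1881 replicate 2 (-0.02 to 0.11), KDR at 0.02, NRP1 at 0.04 and NRP2 at 0.02 with the mean of their sets, and NRP2 at 0.00, 0.03 and 0.00 without R1881 replicate 2, vehicle replicate 2 and vehicle replicate 3 (-0.06 to 0.03). The 95th percentile as background (6.04) left 15 of 16 member sets above it. The set lost was that of NRP2, with means of 5.38 with R1881 and 5.39 with vehicle.

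Both groups are numbered 1 to 3, and same-numbered arrays deviated together only weakly over all probe sets (r = 0.0921, 0.0633 and 0.0583), though each array correlated best with its own number. Over probe sets above background r was 0.158, 0.131 and 0.105. Pairing was judged over all probe sets, where no pair passed 0.1, a cut that the plan had not fixed. The block was therefore not used for the values reported, although all 3 pairs passed the cut over the brighter sets. With the replicate block TEK stood at 1.28 with an adjusted p of 0.0545, KRT18 lost its call (adjusted p = 0.0644), and so did KRT7 and 11 of the named list genes (0.0578 to 0.119), while EPAS1, ETS1, ADM, EFNB2, PLAU and CCBE1 kept theirs.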
